A study of Mus musculus with 10 samples.

Results

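If losses of 2 transcription factors add on the log2 scale, the change of a gene after losing both equals the sum of its changes after losing each. The data described here were used to find the genes that depart from this sum for Nrf2 and the NF-κB subunit p65 in mouse hepatocytes. For every gene, the effect of Nrf2 loss in the absence of p65 (DKO minus p65 KO) was compared with the effect of Nrf2 loss in its presence (Nrf2 KO minus control), on the log2 scale. A positive value of this interaction means that the gene was higher in DKO than the sum of the single effects, and a negative value that it was lower. The comparison was given by the design and was fitted in 1 model of the 4 genotypes. All 10 of the 10 libraries of the series entered it, and 13641 of the 21939 genes in the table had at least 10 counts summed over the libraries and were tested.

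The libraries were made from poly-A RNA of hepatocytes isolated from 10 male mice, each library from 1 mouse. The labels give an age of 8 to 9 weeks and do not say whether it held at injection or at isolation. Control mice were C57BL/6J wild-type animals without floxed alleles (n = 3). Nrf2 KO mice carried Nrf2 flox/flox alleles (n = 2), p65 KO mice carried p65 flox/flox alleles (n = 2), and DKO mice came from an Nrf2:p65 double-floxed line (n = 3). The floxed lines were kept on the C57BL/6J background according to the methods. Every mouse, control included, had received AAV8Cre, a virus whose Cre recombinase is driven by the thyroxine-binding globulin promoter of hepatocytes, and was sacrificed 12 days later. Deletion was thus aimed at hepatocytes alone, and the isolation by Liberase perfusion and density centrifugation can leave some other liver cells behind. The genotypes differ in their breeding line as well as in the deleted genes, and line and deletion cannot be told apart.

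Nrf2 (gene Nfe2l2) is released from Keap1 under oxidative or electrophilic stress and turns on genes of glutathione metabolism and detoxification through antioxidant response elements. p65 (gene Rela) is the main activating subunit of NF-κB, which drives inflammatory, acute-phase, and survival genes after signals such as tumor necrosis factor. Both factors are active in the same liver cells and share coactivators, and hepatocytes without p65 are known to be sensitive to cytokine-induced damage.

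The table holds 1 total per gene, so transcripts that lack a deleted exon were counted with the intact ones. Nfe2l2 had 2318, 1991, and 1990.2 in control, 4739 and 5005 in Nrf2 KO, 1993 and 1997 in p65 KO, and 4111, 3434, and 5239.5 in DKO, all in normalized counts, which are estimated counts divided by the effective library size. Its total was thus higher, not lower, in every Nrf2 KO and DKO library. Rela had 1221, 1276, and 1269 in control, 1268 and 1225 in Nrf2 KO, 1183 and 1209 in p65 KO, and 1488, 1241, and 1034 in DKO normalized counts, and the genotypes overlapped. Neither gene passed the test for a departure from additivity, with log2 interactions of -0.12 (standard error 0.22, adjusted p = 0.858) and 0.08 (standard error 0.20, adjusted p = 0.897). The Nfe2l2 totals separated the Nrf2 KO and DKO libraries from the rest, whereas the Rela totals did not separate p65 KO and DKO from the rest. Neither total measures the deletion of an exon. The estimated counts per library summed to between 33707165 and 49897382.

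Of the 13641 genes tested, 62 departed from additivity by at least 1 on the log2 scale at an adjusted p of at most 0.05 (edgeR's quasi-likelihood test, Benjamini-Hochberg adjustment). This is 0.455% of the genes tested. Of these, 36 genes (0.264%) were higher than additive and 26 (0.191%) were lower, and 2 further genes passed the adjusted p with a smaller size. At an unadjusted p under 0.05 there were 994 genes in the higher direction (7.29%) and 894 in the lower direction (6.55%), and the median log2 interaction of all genes was 0.01. Leaving out 1 library moved the count of 62 by more than 1.5 times for 8 of the 10 libraries. It was 19, 25, and 39 without control replicates 1, 2, and 3, 41 and 8 without Nrf2 KO replicates 1 and 2, 10 and 12 without p65 KO replicates 1 and 2, and 119 without DKO replicate 2. All 62 genes kept their direction in each of the 10 fits with 1 library left out, and 6 of them, Gm4841, Tmem51, Hsd3b3, Mup12, and Zfp982 among these, were called in every one. Because the same libraries served to choose the genes, a kept direction is not independent evidence. The split between higher and lower genes depended on the scaling. With equal library totals in place of TMM scaling, 118 genes were called, 27 higher and 91 lower, and the median interaction of all genes shifted by -0.27. With equal totals computed without Mup genes, a setting added after the data had been seen, 27 were higher and 36 lower.

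The interaction is the difference between 2 effects that share no library. Loss of Nrf2 with p65 present changed 75 genes (0.55% of those tested), 15 up and 60 down. Loss of Nrf2 in hepatocytes already without p65 changed 243 genes (1.78%), 111 up and 132 down. Both lists contained 28 genes, 26 of them with the same direction. Across the 10185 genes whose mean normalized count reached 50, the effects correlated with Pearson's r = 0.14 and Spearman's rho = 0.13, a description across genes, which are not independent replicates. Of the 62 genes, 15 also passed the test in the first effect and 35 in the second, and 14 passed in neither. Without single libraries the count of 75 fell to 37, 40, 32, and 18 (control replicates 1 and 2, Nrf2 KO replicates 1 and 2), and that of 243 to 70, 72, and 112 (p65 KO replicates 1 and 2, DKO replicate 1).

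**Figure D1:**
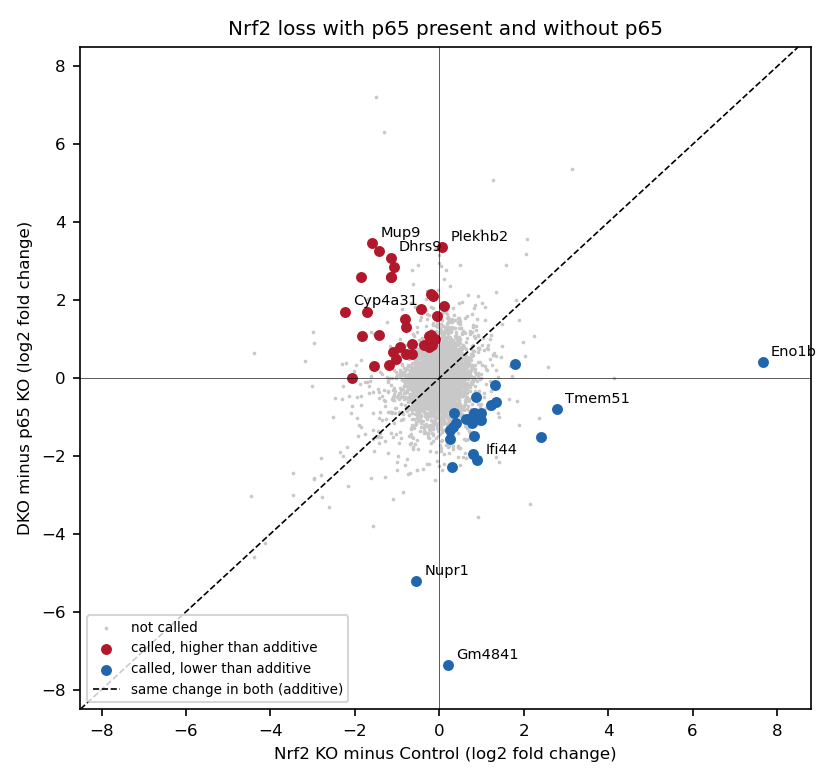
Each point is a gene, with the log2 fold change of Nrf2 KO against control on the x axis and that of DKO against p65 KO on the y axis. Points on the dashed line are additive, red genes lie above it (higher in DKO than additive), and blue genes lie below it. 59 of the 62 called genes are drawn, without Corin, Zfp982, and Zfp984, whose counts did not exceed 3 in at least 1 genotype. Grey points are the 10121 uncalled genes whose mean normalized count reached 50, and 5 more of these lie outside the axes.

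Which genotype carried the departure was read from the libraries themselves. Both p65 KO libraries lay above or below all 8 others for 35 of the 62 genes, against 22.4% of all genes tested. In 15 of these 35 p65 KO was the highest and in 20 the lowest, and the DKO libraries then did not follow p65 KO to its level. Nrf2 KO stood apart in 13 genes (6.15% of all genes tested), control in 15 (6.17%), and DKO in 10 (4.26%). A gene can count for more than 1 genotype, as 18 did, and 7 genes had no genotype apart. The direction of the departure fixes in part which genotype can stand apart, so these counts describe the genes and test nothing.

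The largest group of genes higher than additive encoded major urinary proteins, small lipocalins that the male liver secretes and that carry pheromones in urine. Of 22 Mup genes tested, 9 were called higher than additive and none lower, and 16 were higher and none lower at an unadjusted p under 0.05. Each of the 22 had a positive interaction, with a median of 2.54 against 0.01 over all genes. The 9 were Mup1, Mup2, Mup7, Mup8, Mup9, Mup11, Mup12, Mup14, and Mup20. Together, Mup genes took 7.16% to 9.28% of all counts in control, 5.22% to 6.63% in Nrf2 KO, 4.08% to 5.02% in p65 KO, and 10.04% to 16.6% in DKO. The share was thus lower than in control in each single knockout and higher in DKO, without overlap between the genotypes.

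Mup9 (chr4:60374041-60377954, positions here and below on GRCm39) had the largest interaction of the 9. It had 27414, 16942, and 14934 in control, 6440.0 and 6719 in Nrf2 KO, 4025 and 5322 in p65 KO, and 64676, 17895, and 72769 in DKO normalized counts. Both single knockouts lay below every control library, while 2 of the 3 DKO libraries lay above them all. Its change against control was 1.39 in DKO, where the sum of the single changes was -3.67 (log2). The interaction was 5.06 (standard error 0.72, adjusted p = 0.0194). Mup12 was the second most significant of all genes and had 12415, 10531, and 11969 in control, 3071 and 4075 in Nrf2 KO, 3852 and 4867 in p65 KO, and 16644, 12898, and 12745 in DKO normalized counts. Its level was lower in both single knockouts and above all other libraries in DKO, with an interaction of 3.40 (standard error 0.26, adjusted p = 0.000357). Mup20, also called darcin, which acts as a male pheromone, had a different profile, with 483369, 277793, and 346555 in control, 113227 and 159764 in Nrf2 KO, 95451 and 131884 in p65 KO, and 268650.0, 315335, and 155592 in DKO normalized counts. The DKO libraries did not exceed control, and overlapped both control and Nrf2 KO, and the interaction was 2.55 (standard error 0.46, adjusted p = 0.0452). Mup7, which took the most counts of the 9, had 741187, 592925, and 552603 in control, 429974 and 660470.0 in Nrf2 KO, 365765 and 433367 in p65 KO, and 2159110.0, 1405440.0, and 1795320.0 in DKO normalized counts and an interaction of 2.37 (standard error 0.35, adjusted p = 0.0215). Its log2 changes in the single knockouts were small (-0.21 in Nrf2 KO and -0.65 in p65 KO, neither past the test), and it rose by 1.51 in DKO (adjusted p = 0.00375). The other 5 called genes, Mup1, Mup2, Mup8, Mup11, and Mup14, had interactions between 3.72 and 4.70.

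Mup genes lie in a cluster on chromosome 4 and many are similar in sequence, so reads could have been divided between the most similar copies. Mup20 is not among the genes whose sequences are compared below. The sum over the 22 genes does not depend on this division. Its log2 ratio to control was 0.88 in DKO, against -0.43 in Nrf2 KO and -0.98 in p65 KO, an interaction of 2.30 (standard error 0.43, no test). How alike the genes are is visible upstream of their starts. RefSeq promoter windows (GRCm38.p6) were given for 5 of the 9 called genes, Mup2, Mup7, Mup9, Mup11, and Mup14, and all 5 genes lie on the minus strand, on which the sequence is read. The following 66 bases, shown because they are the longest run that all 5 windows share letter for letter, start 96 bases before the annotated start of Mup7 (chr4:60070506-60070571) and 202 bases before that of Mup11 (chr4:60662532-60662597).
Mup7 and Mup11: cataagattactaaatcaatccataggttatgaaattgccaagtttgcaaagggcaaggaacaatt
The 250-base upstream windows were aligned on this run and compared where they overlapped, over 113 to 247 bases per pair. The 10 pairs were 81.8% to 98.6% identical, with a median of 92.6%. The run itself, chosen because it is identical, was counted in these values. The run occurred in the windows of 9 genes of the whole table, and all of them were Mup genes. None of the 5 windows held any of 6 searched motifs (named further below).

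The second group concerned fatty acid oxidation. PPARα is the nuclear receptor that turns on this pathway during fasting, and Cyp4a enzymes, which hydroxylate the terminal carbon of fatty acids, are among its most sensitive targets. Of 32 PPARα targets and fatty acid oxidation genes, 2 were called higher than additive and none lower. At an unadjusted p under 0.05, 16 were higher and 3 lower, with a median of 0.43. Cyp4a31 (chr4:115420818-115436212) had 1044, 779, and 1322 in control, 191 and 253 in Nrf2 KO, 123 and 87.9 in p65 KO, and 188, 282, and 563 in DKO normalized counts. All 7 knockout libraries lay below control, and the DKO libraries overlapped Nrf2 KO and lay above p65 KO. On the log2 scale, the additive expectation for DKO was -5.55, the measured change was -1.61, and the interaction was 3.94 (standard error 0.59, adjusted p = 0.0221). Cyp4a32 (chr4:115458134-115479704) had 1012, 1063, and 1009.6 in control, 559 and 449 in Nrf2 KO, 489 and 475 in p65 KO, and 611, 732, and 689 in DKO normalized counts. Here the DKO libraries lay above those of both single knockouts and below control, with an interaction of 1.52 (standard error 0.18, adjusted p = 0.00825). Cyp4a10 and Cyp4a14 had larger differences between DKO mice, and their interactions of 4.18 (standard error 1.12, adjusted p = 0.15) and 3.62 (standard error 1.28, adjusted p = 0.256) did not pass the test. Cyp4a10, for example, had 737, 2375, and 9899 normalized counts in DKO. The acyl-CoA thioesterases Acot1 and Acot2, which release free fatty acids in cytosol and mitochondria, had interactions of 2.19 (standard error 0.88, adjusted p = 0.316) and 1.28 (standard error 0.53, adjusted p = 0.332). The Cyp4a genes are similar in sequence, and the sum of Cyp4a10, Cyp4a14, Cyp4a31, and Cyp4a32 had an interaction of 3.40 (standard error 1.21, no test). This sum was 1645, 4066, and 13340 in DKO and 3193 and 3259 in p65 KO normalized counts. The DKO libraries thus lay on both sides of p65 KO. Hacl1, which cleaves 2-hydroxy fatty acids in peroxisomes and was named after its value had been seen, had an interaction of 1.52 (standard error 0.27, adjusted p = 0.0375).

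**Figure D2:**
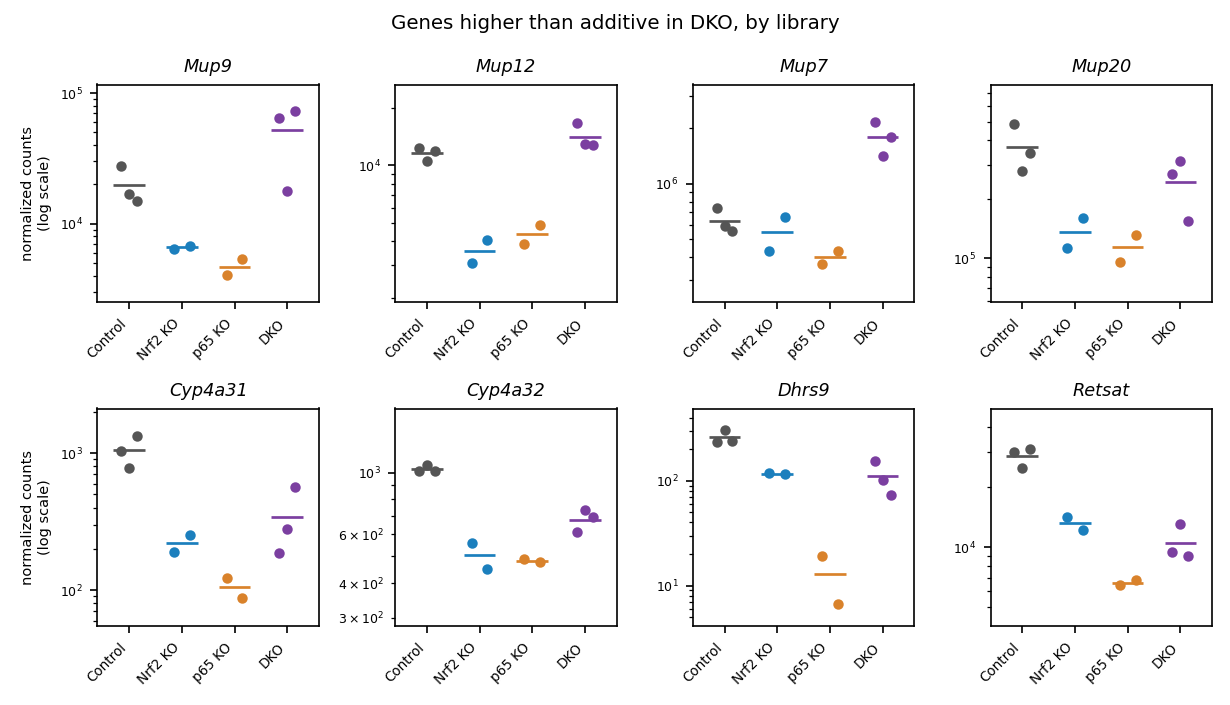
Normalized counts on a log scale (y axis) in each library, grouped by genotype (x axis). Points are mice and bars are genotype means. For the Mup genes of the upper panels DKO lies above p65 KO, and for Mup7 and Mup12 above all other libraries. For Cyp4a31, Cyp4a32, Dhrs9, and Retsat all knockout libraries lie below control, with p65 KO or both single knockouts at the bottom.

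Genes of retinoid metabolism were called in both directions, 2 higher and 1 lower of 21, and the list as a whole had a median of 0.16. With equal totals its median was -0.12, where that of all genes tested was -0.26. Dhrs9 (chr2:69210776-69234877), a short-chain dehydrogenase that can oxidize retinol, had 236, 305, and 237 in control, 118 and 116 in Nrf2 KO, 19.3 and 6.62 in p65 KO, and 155, 102, and 73.2 in DKO normalized counts. It fell most in p65 KO (log2 change -4.33, adjusted p = 0.000722), and the DKO libraries lay above those of p65 KO, with an interaction of 4.24 (standard error 0.57, adjusted p = 0.0123). Retsat (chr6:72575458-72585996), which saturates a double bond of retinol, had 29935, 24825, and 30906 in control, 14222 and 12252 in Nrf2 KO, 6455 and 6812 in p65 KO, and 9470.5, 13000.3, and 9079 in DKO normalized counts. It was below control in every knockout library and lowest in p65 KO, and the interaction was 1.77 (standard error 0.25, adjusted p = 0.0159). Rdh9 (chr10:127612255-127628566), a retinol dehydrogenase, went the other way, with 812, 754, and 1461 in control, 1664 and 1925 in Nrf2 KO, 2634 and 3042 in p65 KO, and 777, 1028, and 1223 in DKO normalized counts. It was highest in p65 KO, the DKO libraries overlapped control, and the interaction was -2.32 (standard error 0.37, adjusted p = 0.03).

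Among the other genes higher than additive, Plekhb2 (chr1:34888776-34920379), a protein of recycling endosomes, was most reduced in p65 KO. It had 546, 484, and 611 in control, 546 and 597 in Nrf2 KO, 40.6 and 39.7 in p65 KO, and 262, 663, and 316 in DKO normalized counts. The p65 KO libraries lay below all others by a wide margin, and the interaction was 3.30 (standard error 0.50, adjusted p = 0.0227). Capn8 (chr1:182392572-182459917), a calpain protease, was instead lowest in Nrf2 KO, with 123, 95.4, and 61.6 in control, 27.7 and 24.2 in Nrf2 KO, 60.96 and 69.00 in p65 KO, and 177, 101, and 135 in DKO normalized counts. Its p65 KO libraries overlapped control, and the interaction was 2.92 (standard error 0.50, adjusted p = 0.0343). Map3k13 (chr16:21613096-21752189), a kinase that acts upstream of JNK, was also lowest in p65 KO, with 774, 779, and 764 in control, 784 and 514 in Nrf2 KO, 256 and 282 in p65 KO, and 610.1, 517, and 580.1 in DKO normalized counts and an interaction of 1.33 (standard error 0.24, adjusted p = 0.0441).

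The remaining genes of this direction fall outside the naming rule and were chosen after their values had been seen. Insig2, which holds back SREBP activation at the endoplasmic reticulum, had 9977, 13739.5, and 9518 in control, 7361 and 5528 in Nrf2 KO, 1766 and 1997 in p65 KO, and 5461, 4595, and 4040.4 in DKO normalized counts. It was lowest in p65 KO and lay between p65 KO and Nrf2 KO in DKO, and the interaction was 2.10 (standard error 0.28, adjusted p = 0.0123). Slc45a3, Lrfn3, and Spon2 were likewise lowest in p65 KO, with interactions of 2.22, 2.27, and 2.32 (adjusted p = 0.0316, 0.0316, and 0.0365). Slc3a1, the heavy chain of a cystine and dibasic amino acid transporter, differed from these because it rose in DKO, above all other libraries. It had 1693, 1445, and 1643 in control, 1507 and 1549.5 in Nrf2 KO, 1581 and 1195 in p65 KO, and 5355, 3844, and 3247 in DKO normalized counts and an interaction of 1.64 (standard error 0.28, adjusted p = 0.0343). F2r, the thrombin receptor, Nlrp12, a cytosolic receptor of the NLR family, and Hopx, a homeodomain cofactor, lay below control in every single-knockout library and had interactions of 1.74, 1.84, and 1.41 (adjusted p = 0.0221, 0.0316, and 0.0375). Sco2, which helps to assemble cytochrome c oxidase, the histone gene H2bc4, Isoc2b, the tubulin acetyltransferase gene Atat1, and Hikeshi, an import carrier of heat shock protein, had small departures between 1.01 and 1.31, each with p65 KO below all other libraries.

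Genes lower than additive were led by the interferon response. Interferons induce guanylate-binding proteins (Gbp) and immunity-related GTPases (IRG), which attack vacuoles that hold pathogens, and a wider set of antiviral genes through interferon-stimulated response elements (ISRE). Of 19 interferon-inducible GTPase genes, 4 were called lower than additive and none higher. At an unadjusted p under 0.05, 14 were lower and none higher, and the median was -1.76. Of 23 type I interferon-stimulated genes, 3 were called lower and none higher, 11 were lower at an unadjusted p under 0.05, and the median was -0.91. In both lists DESeq2 called more genes, 10 and 7, all of them lower. Over all 13641 genes tested it called 249, 136 higher and 113 lower, against 62 by edgeR. Its counts for lists, here and below, are to be read beside this total.

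The 4 called GTPase genes shared 1 profile, highest in p65 KO and much lower in DKO. Gm4841 (chr18:60401377-60406349), an IRG gene, had 9.94, 23.6, and 20.5 in control, 24.7 and 17.8 in Nrf2 KO, 4480.2 and 5104 in p65 KO, and 27.4, 38.2, and 20.6 in DKO normalized counts. The p65 KO libraries lay far above all 8 others, and the DKO libraries overlapped Nrf2 KO and control. Its interaction was -7.58 (standard error 0.46, adjusted p = 7.89e-05), the most significant of all genes. Gbp2 (chr3:142326349-142343779) had 47.5, 36.4, and 46.7 in control, 61.3 and 45.3 in Nrf2 KO, 169.7 and 181 in p65 KO, and 29.5, 52.7, and 26.3 in DKO normalized counts, and its interaction was -2.56 (standard error 0.47, adjusted p = 0.0459). Gbp9 (chr5:105224332-105287452) had 39.8, 27.5, and 46.7 in control, 71.2 and 62.2 in Nrf2 KO, 145 and 146 in p65 KO, and 28.4, 50.5, and 33.2 in DKO normalized counts, with an interaction of -2.77 (standard error 0.46, adjusted p = 0.0316). In both genes p65 KO was above all other libraries and DKO overlapped control. Irgm2 (chr11:58090444-58113615), a regulator of other IRG proteins, had 1581, 1580.3, and 1513 in control, 1987 and 1936 in Nrf2 KO, 5645 and 6009 in p65 KO, and 2338, 3219, and 1767 in DKO normalized counts. Its DKO libraries stayed above control in all 3 mice, and the interaction was -1.59 (standard error 0.27, adjusted p = 0.0325). Gbp2 was called in 1 of the 10 fits with a library left out, Irgm2 in 2, and Gbp9 in 3. Gbp genes are similar to each other, and reads could have been divided between them.

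The 3 called antiviral genes had another profile, above control in both Nrf2 KO libraries and with their lowest mean in DKO. Ifi44 (chr3:151436559-151455625) had 109, 87.5, and 123 in control, 161 and 238 in Nrf2 KO, 176 and 147 in p65 KO, and 27.4, 39.3, and 45.8 in DKO normalized counts. All 3 DKO libraries lay below every other library, and its interaction was -3.01 (standard error 0.39, adjusted p = 0.0106). Usp18 (chr6:121222848-121247877), which removes ISG15 from proteins and dampens the interferon receptor, had 453, 291, and 332 in control, 675 and 756 in Nrf2 KO, 685 and 563 in p65 KO, and 333, 291, and 259.7 in DKO normalized counts. It was higher in each single knockout than in control, while the DKO libraries overlapped control, and the interaction was -2.08 (standard error 0.27, adjusted p = 0.0106). Ifit3 (chr19:34560899-34566443), which takes part in sensing viral RNA, had 319, 372, and 269 in control, 512 and 560.2 in Nrf2 KO, 263 and 299 in p65 KO, and 168, 126, and 120.1 in DKO normalized counts. It was highest in Nrf2 KO, the p65 KO libraries overlapped control, and the DKO libraries lay below all others, with an interaction of -1.77 (standard error 0.26, adjusted p = 0.0221).

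**Figure D3:**
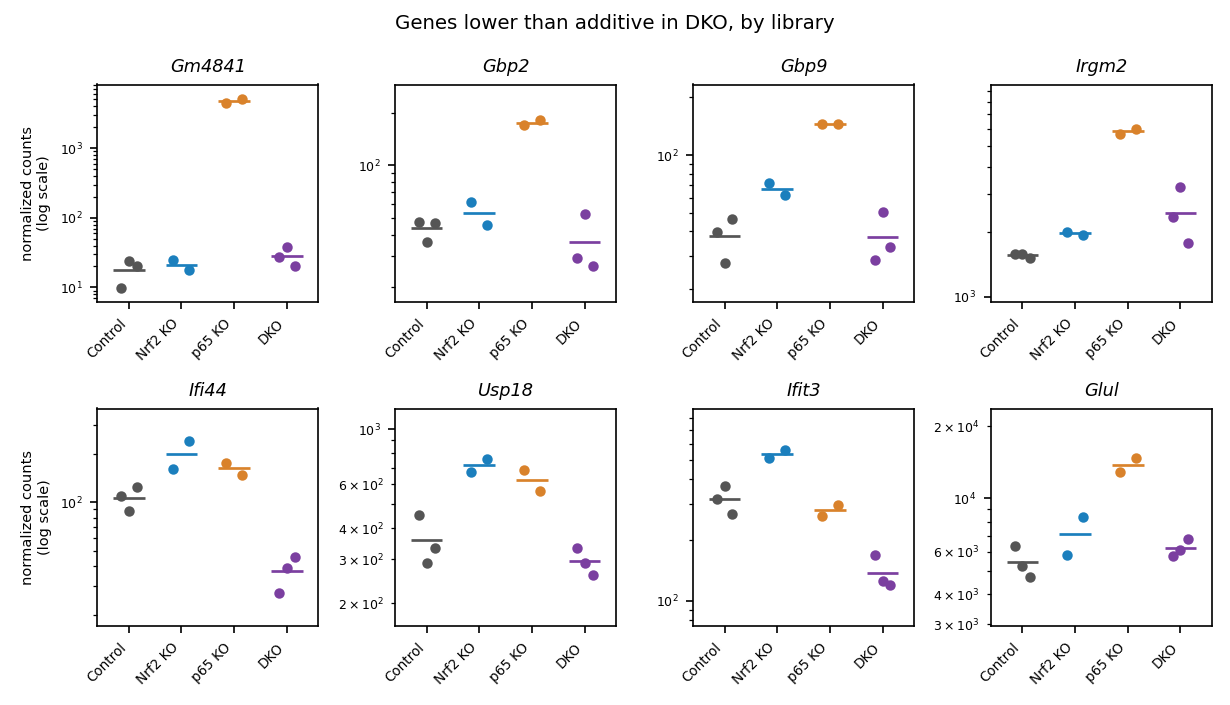
Normalized counts on a log scale (y axis) in each library, grouped by genotype (x axis). Points are mice and bars are genotype means. Gm4841, Gbp2, Gbp9, Irgm2, and Glul are highest in p65 KO, Usp18 is higher in both single knockouts, and Ifi44 and Ifit3 are lowest in DKO.

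Promoter windows of 250 bases before the gene start (RefSeq, GRCm38.p6) were matched by symbol to 10555 tested genes and to 47 of the 62 called genes, 29 higher and 18 lower than additive. The ISRE letters GAAANNGAA, searched on both strands, were in 5 of the 18 windows of genes lower than additive, in 2 of the 29 of genes higher than additive (Cyp4a32 and Zfp982), and in 6.40% of all windows. Windows were given for 4 of the 7 called interferon genes, and 3 of them, all of genes on the plus strand, held the letters. They are shown because they belong to the genes that lead the lower direction, with the matches in capitals and up to 45 bases on each side. The Gbp2 window is chr3:142620560-142620658, that of Ifit3 chr19:34583329-34583480 with 3 matches, and that of Irgm2 chr11:58214868-58214966.
Gbp2: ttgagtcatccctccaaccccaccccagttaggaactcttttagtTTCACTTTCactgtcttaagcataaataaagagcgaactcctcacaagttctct
Ifit3: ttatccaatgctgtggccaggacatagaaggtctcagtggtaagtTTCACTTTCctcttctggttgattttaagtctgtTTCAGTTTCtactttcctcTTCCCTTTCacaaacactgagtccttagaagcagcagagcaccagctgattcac
Irgm2: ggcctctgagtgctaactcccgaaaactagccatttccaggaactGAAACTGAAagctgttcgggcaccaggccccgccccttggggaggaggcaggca
Ifi44 had no match in its window. The other 2 windows of genes lower than additive with a match were those of Glul and Hsd3b3. The antioxidant response element core TGACNNNGC was in 2 of 29 windows of genes higher (F2r and Slc45a3) and 2 of 18 of genes lower than additive (Irgm2 and Prxl2b), against 12.0% of all windows. The κB letters GGNNTTTCC were in 1 of 29 (Atat1) and 1 of 18 (Ifit3), against 5.01%. The E-box CACGTG, bound by clock proteins among others, was in 0 of 29 and 3 of 18 (Nupr1, Rdh9, and Rnf145), against 8.17%. The D-box TTANNTAA was in 4 of 29 (Eno1, Insig2, Slc45a3, and Zfp984) and 1 of 18 (Ifit3), against 3.54%, and the GAS letters TTCNNNGAA, to which STAT dimers bind, were in 1 of 29 (Nlrp12) and 2 of 18 (Irgm2 and Nupr1), against 6.12%. An ISRE match and a GAS match can overlap, all motifs were searched on both strands, and a match of letters is not a measured binding site.

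Glul, Foxa3, and Serpina3m were further called genes lower than additive, each from another list. Glul (chr1:153775690-153785469), the glutamine synthetase of the hepatocytes around the central vein, had 6371, 5258, and 4719 in control, 5845 and 8375 in Nrf2 KO, 12849 and 14801 in p65 KO, and 5739, 6094, and 6785 in DKO normalized counts. The p65 KO libraries lay above all others and the DKO libraries overlapped control, with an interaction of -1.54 (standard error 0.24, adjusted p = 0.0281). It was the only gene that edgeR called among 17 pericentral and Wnt target genes, all of which had a negative interaction (median -1.17, 8 with an unadjusted p under 0.05), and DESeq2 called 5 of them, all lower. Foxa3 (chr7:18747209-18757471), a pioneer transcription factor of hepatocytes, had 2236, 2153, and 2218 in control, 2749 and 2848 in Nrf2 KO, 4136 and 4736 in p65 KO, and 2831, 1958, and 2321 in DKO normalized counts. It too was highest in p65 KO, and it was the only gene called among 23 hepatocyte transcription factors by edgeR and by DESeq2, with an interaction of -1.25 (standard error 0.20, adjusted p = 0.0294). Serpina3m (chr12:104304745-104361078), a secreted protease inhibitor of the acute-phase list, had 6029, 5929, and 7751 in control, 10036 and 12325 in Nrf2 KO, 17376 and 19736 in p65 KO, and 5614, 9234, and 10182 in DKO normalized counts. The p65 KO libraries were above all others, and the interaction was -1.92 (standard error 0.32, adjusted p = 0.0316). Among 29 acute-phase genes it was the only one that edgeR called, whereas DESeq2 called 1 higher and 3 lower. Serpina3m has close copies, and the sum over 8 Serpina3 genes went the opposite way, with an interaction of 0.77 (standard error 0.26, no test). Serpina6, the corticosteroid-binding globulin, had an interaction of -1.89 (standard error 0.33, adjusted p = 0.0375), and like the next 2 genes it was named after its value had been seen. Rnf145, a ubiquitin ligase of the endoplasmic reticulum, and Arrdc3, an arrestin-like adaptor, had interactions of -1.72 and -1.68 (adjusted p = 0.0459 and 0.0493).

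Atp6v0d2, Synj2, and Mpeg1 were above control in every single-knockout library and not higher still in DKO, as were several of the genes described above. Atp6v0d2 (chr4:19876838-19922614), a subunit of the vacuolar proton pump, had 15.5, 25.6, and 36.4 in control, 119.6 and 155 in Nrf2 KO, 216 and 116 in p65 KO, and 30.5, 58.3, and 84.7 in DKO normalized counts. Each single knockout was above control, the 3 DKO libraries lay below all 4 of the single knockouts, and the interaction was -3.92 (standard error 0.63, adjusted p = 0.0302). Synj2 (chr17:5991555-6094586), an inositol phosphatase of endocytosis, had 56.3, 60.97, and 61.6 in control, 132 and 169 in Nrf2 KO, 224 and 171 in p65 KO, and 167, 101, and 116 in DKO normalized counts. All knockout libraries were above control, and additivity gave a log2 change of 3.06 in DKO, which the libraries did not reach, an interaction of -1.96 (standard error 0.36, adjusted p = 0.0459). Mpeg1 (chr19:12438114-12442649), which encodes perforin-2 and is strongly expressed in macrophages, had 558, 663, and 590.2 in control, 1596 and 1246 in Nrf2 KO, 3202 and 2649 in p65 KO, and 2271, 2070.2, and 1105 in DKO normalized counts. It was above control in every knockout library and highest in p65 KO, with an interaction of -1.92 (standard error 0.35, adjusted p = 0.0465).

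Beside Mpeg1 and the interferon genes, markers of macrophages and other non-hepatocytes moved in these libraries. The summed level of 14 Kupffer cell markers was 4690.2 to 5692 in control, 3544 to 3704 in Nrf2 KO, 9251 to 10475 in p65 KO, and 4076 to 5646 in DKO. That of 16 sinusoidal endothelial markers was 1317 to 2781 in control, 1663 to 3261 in Nrf2 KO, 6797 to 9229.7 in p65 KO, and 3460.2 to 5084 in DKO, and that of 13 stellate cell markers 309.8 to 594 in control, 263 to 515 in Nrf2 KO, 2897 to 3141 in p65 KO, and 565 to 1516 in DKO. All 3 sums were highest in p65 KO, no marker of the 3 lists was at 0 in every library, and none was called (DESeq2 called 1 stellate cell marker). At an unadjusted p under 0.05, 0 Kupffer, 7 endothelial, and 5 stellate cell markers were lower and none higher. The DKO sum of Kupffer markers overlapped control, but the single markers had a median log2 change of 1.67 for DKO against control. For p65 KO this median was 2.80, and for Nrf2 KO it was -0.45. All 14 Kupffer markers had a negative interaction (median -0.71), although without Nrf2 KO replicate 1 the median was 0.44. The 16 endothelial markers had a median interaction of -1.01. The part of these cell types in the results for genes that are highest in p65 KO was not tested. Fewer cells of a type and less RNA per cell cannot be told apart in such bulk samples. The summed level of 16 hepatocyte markers was 4972211 to 6614708 in control, 6568419.9 to 7654754 in Nrf2 KO, 5514634 to 5613953 in p65 KO, and 6017037 to 6225846 in DKO, far above the sums of the other lists in every library. The markers of cholangiocytes, B cells, neutrophils, T and NK cells, and of monocytes with dendritic cells summed to at most 1316 in any library and had median interactions between -0.69 and 0.61. The B cell sum was 88.3 to 398 in control and 143 to 169 in Nrf2 KO. It was 75.2 to 88.8 in p65 KO and 191 to 472 in DKO, a log2 interaction of 2.30 (no test). The neutrophil sum had an interaction of -1.27, and the remaining sums had values between -0.38 and -0.03. The erythroid cell markers summed to 3395 to 4709.9 in control, 3695 to 3820.1 in Nrf2 KO, 3199 to 3582 in p65 KO, and 4784 to 5647 in DKO, a log2 interaction of the sum of 0.68 (no test). Their single genes had a median of 2.82, with 5 of 7 higher at an unadjusted p under 0.05 and none called.

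Nupr1 (chr7:126222414-126230033), a small chromatin protein induced by stress, had 13.3, 35.4, and 17.7 in control, 7.91 and 21.8 in Nrf2 KO, 141 and 86.95 in p65 KO, and 2.10, 2.24, and 4.58 in DKO normalized counts. It was highest in p65 KO and lowest in DKO, and its interaction of -4.66 (standard error 0.86, adjusted p = 0.0493) rests on a few counts per DKO library and held in 1 of the 10 fits with a library left out. It was the only called member of 22 genes of the integrated stress and unfolded protein response. Corin, a protease that activates atrial natriuretic peptide, was named after its values had been seen. It had 231 and 168 normalized counts in p65 KO, at most 3.23 in the 5 control and Nrf2 KO libraries, and 0, 1.12, and 0 in DKO. It was called lower than additive (adjusted p = 0.027). Against a floor of 3 counts per library, p65 KO was at least 60.1-fold higher than DKO, and no fitted fold is given.

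The called genes were not spread evenly over the genome. Chromosome 4 held 22 of the 62 (2.56% of its 858 tested genes, against 0% to 0.631% for the other chromosomes). Of the 22, 9 were the Mup genes and 2 the Cyp4a genes, and Atp6v0d2 lay apart from these. The other 10 lay within 14.4 Mb near the distal end, chr4:141585453-155953912, an interval chosen after the values had been seen. In it, 10 of 117 tested genes were called (8.55%), against 0.385% elsewhere, 5 higher and 5 lower than additive. For 8 of the 10 both Nrf2 KO libraries stood apart from all others, against 5 of the 52 called genes elsewhere. Over all tested genes, called or not, Nrf2 KO stood apart in 25.6% of the interval and in 5.98% of the genes elsewhere. Neither targeted gene is on this chromosome, since Nfe2l2 lies on chromosome 2 and Rela on chromosome 19. The genotypes also differ in their breeding line, and line and deletion cannot be told apart for the genes of this interval.

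Zfp982 (chr4:147545583-147601280), a zinc finger gene, had 1.98 and 0 normalized counts in Nrf2 KO. In control it had 158, 199.6, and 142, in p65 KO 148 and 113, and in DKO 61.01, 92.01, and 108. Nrf2 KO was therefore at least 61.8-fold lower than control, whereas every DKO library had at least 61.01 normalized counts. The interaction was at least 5.32 on the log2 scale when Nrf2 KO was set to a floor of 3 counts per library (adjusted p = 0.00408). Its neighbor Zfp984, named after its values had been seen, had 2.97 and 0.808 normalized counts in Nrf2 KO, was at least 19.5-fold lower than control, and had 43.1, 41.5, and 38.9 in DKO. Tmem51 (chr4:141755714-141812390), a membrane protein, had 96.1, 115, and 106 in control, 605 and 859 in Nrf2 KO, 186 and 130.4 in p65 KO, and 109, 77.4, and 84.7 in DKO normalized counts. Its Nrf2 KO libraries lay above all others, with an interaction of -3.59 (standard error 0.32, adjusted p = 0.000806). Miip, an inhibitor of cell migration, was lowest in Nrf2 KO, with 314, 356, and 345 in control, 87.99 and 72.7 in Nrf2 KO, 456 and 407 in p65 KO, and 508, 434, and 344 in DKO normalized counts and an interaction of 2.07 (standard error 0.26, adjusted p = 0.0102). In Tmem51 and Miip the DKO libraries lay closer to p65 KO and control than to Nrf2 KO. Prxl2b, a prostaglandin F synthase, and Cptp, which transfers ceramide-1-phosphate, were also highest in Nrf2 KO, with interactions of -1.43 and -1.35, although p65 KO lay above control too. The exceptions were Efhd2, a calcium-binding protein, which was highest in p65 KO (-1.59), and Mad2l2, a subunit of DNA polymerase zeta, which was lowest there (1.27). Miip, Prxl2b, Cptp, Efhd2, and Mad2l2 were chosen after their values had been seen.

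Eno1 (chr4:150321073-150337027), the glycolytic enzyme enolase, lies in the same interval and had 16354, 14692, and 14164 in control, 6399 and 6869.8 in Nrf2 KO, 12905 and 16948 in p65 KO, and 20364, 16117, and 20008 in DKO normalized counts. The Nrf2 KO libraries lay below all others, DKO included, with an interaction of 1.52 (standard error 0.22, adjusted p = 0.0197). Eno1b (chr18:48178402-48181479), a near-identical gene on chromosome 18, had the opposite departure. It had 65.2, 16.7, and 54.2 in control, 8624 and 9629 in Nrf2 KO, 18.3 and 44.4 in p65 KO, and 65.2, 25.8, and 34.3 in DKO normalized counts, an interaction of -7.25 (standard error 0.74, adjusted p = 0.00287), and a level far above all other libraries in Nrf2 KO. Reads could have been divided between the copies, and their sum had an interaction of 0.28 (standard error 0.22, no test). A sum does not depend on the division.

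A second pair of similar genes diverged in DKO. Hsd3b2 (chr3:98616571-98631859) and Hsd3b3 (chr3:98648793-98670443) encode 3β-hydroxysteroid dehydrogenases and were named after their values had been seen. Hsd3b2 had 2019, 1793, and 1899.6 in control, 2096 and 2039 in Nrf2 KO, 1661 and 1586 in p65 KO, and 6910.1, 6672, and 4069 in DKO normalized counts. It rose in DKO, above all 7 other libraries, with an interaction of 1.74 (standard error 0.27, adjusted p = 0.0281). Hsd3b3 had 8479.9, 8812, and 8375 in control, 10294 and 10044 in Nrf2 KO, 7720.0 and 8924 in p65 KO, and 2909, 2603, and 2949.9 in DKO normalized counts. It fell in DKO, below all 7 others, with an interaction of -1.81 (standard error 0.15, adjusted p = 0.000679). Reads could have been divided between these genes as well, which was not tested. The sum of both genes, which does not depend on the division, had an interaction of -0.43 (standard error 0.20, no test), smaller than either.

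Several lists had interactions of mostly 1 sign without a gene that passed the test. Of 14 genes of the negative arm of the circadian clock and its output factors, all had a negative interaction, with a median of -1.43, and 9 had an unadjusted p under 0.05. None was called by edgeR, and 3 by DESeq2, all lower. Per2, a repressor of the clock, had 168, 155, and 138 in control, 177 and 386 in Nrf2 KO, 1178 and 1256 in p65 KO, and 589, 607, and 897 in DKO normalized counts and an interaction of -1.68 (standard error 0.39, adjusted p = 0.101). Bmal1, the activator that Per2 and its partners repress, had 758, 1129.9, and 498 in control, 700.0 and 323 in Nrf2 KO, 30.5 and 21.7 in p65 KO, and 270.3, 132, and 130.4 in DKO normalized counts. It was lowest in p65 KO and lay between p65 KO and control in DKO, with an interaction of 3.41 (standard error 0.69, adjusted p = 0.0684) that missed the threshold. The 6 genes of the positive arm had a median of 1.09, with 2 higher and 1 lower at an unadjusted p under 0.05 and 2 higher by DESeq2. The mice were all killed in the morning, and the hour of each is not given in the sources used here.

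The 9 proliferation genes that the study names had positive interactions throughout, with a median of 1.87. None was called by edgeR and 1 by DESeq2, and 3 had an unadjusted p under 0.05. Their levels were low. Mki67, a marker of cycling cells, had 15.5, 11.8, and 14.9 in control, 2.97 and 2.42 in Nrf2 KO, 65.02 and 92.6 in p65 KO, and 44.2, 40.4, and 85.8 in DKO normalized counts. It was below control in Nrf2 KO and above it in p65 KO and DKO, with an interaction of 1.87 (standard error 0.71, adjusted p = 0.293). Aurkb, a mitotic kinase and the member with the lowest p, had 0 in both Nrf2 KO libraries, 11.04, 7.87, and 6.54 in control, 11.2 and 17.01 in p65 KO, and 10.5, 10.1, and 50.3 in DKO (adjusted p = 0.162). The mitotic kinase gene Cdk1 had an interaction of 0.96 (standard error 0.68, adjusted p = 0.563). The wider list of 30 mitosis and G2/M genes had a median of 1.00, with 5 genes higher at an unadjusted p under 0.05, and 22 genes of replication licensing had a median of 0.49. The study chose its 9 genes on these samples, so their direction is not independent evidence.

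MHC class II genes, which present antigen, had a median log2 change of 4.20 in p65 KO against control. The summed markers of monocytes with dendritic cells, which express these genes, were likewise highest in p65 KO, with 106 to 189 in control, 71.9 to 166 in Nrf2 KO, 601 to 791 in p65 KO, and 302 to 474 in DKO, and the Kupffer cell sum was also highest in p65 KO. Their part in these values was not tested. All 9 MHC class II genes had negative interactions, with a median of -1.19, 3 of them with an unadjusted p under 0.05 and none called by edgeR or DESeq2. Cd74, their invariant chain, had 55.2, 112, and 111 in control, 113 and 82.4 in Nrf2 KO, 2146 and 1603 in p65 KO, and 944, 811, and 409.6 in DKO normalized counts. The DKO libraries lay between control and p65 KO, and the interaction was -1.43 (standard error 0.51, adjusted p = 0.257). All 16 genes of MHC class I and the immunoproteasome were negative as well, with a median of -0.40, 5 of them with an unadjusted p under 0.05 and none called, and the immunoproteasome subunit Psmb10 had the lowest p (-0.86, adjusted p = 0.125). Collagens and matrix genes had a median of -1.36, and the basement membrane collagen Col4a1 came close to the threshold at -1.76 (standard error 0.33, adjusted p = 0.052). The stellate and endothelial marker sums given above were also highest in p65 KO, with log2 interactions of -1.76 and -1.06 (no test), and their part was not tested. TGF-β ligands, receptors, and targets had a median of -0.89, with Tgfbr3 at -1.62 (standard error 0.43, adjusted p = 0.139), and chemokines had a median of -0.73, with Cxcl9 at -1.71 (standard error 0.43, adjusted p = 0.124). No member of these 3 lists was called by edgeR. At an unadjusted p under 0.05, 4, 8, and 3 members were lower, and 1 chemokine was higher. Of the 16 chemokines, 11 had a negative and 5 a positive interaction. DESeq2 called 3, 1, and 1 members of the lists, all lower. The adenylate cyclase Adcy6 passed the adjusted p with a size just under 1, at -0.99 (standard error 0.16, adjusted p = 0.0316). It had 638, 658, and 629 in control, 602 and 593 in Nrf2 KO, 1368 and 1281 in p65 KO, and 551, 673, and 644 in DKO normalized counts, and the p65 KO libraries lay above all others.

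**Figure D4:**
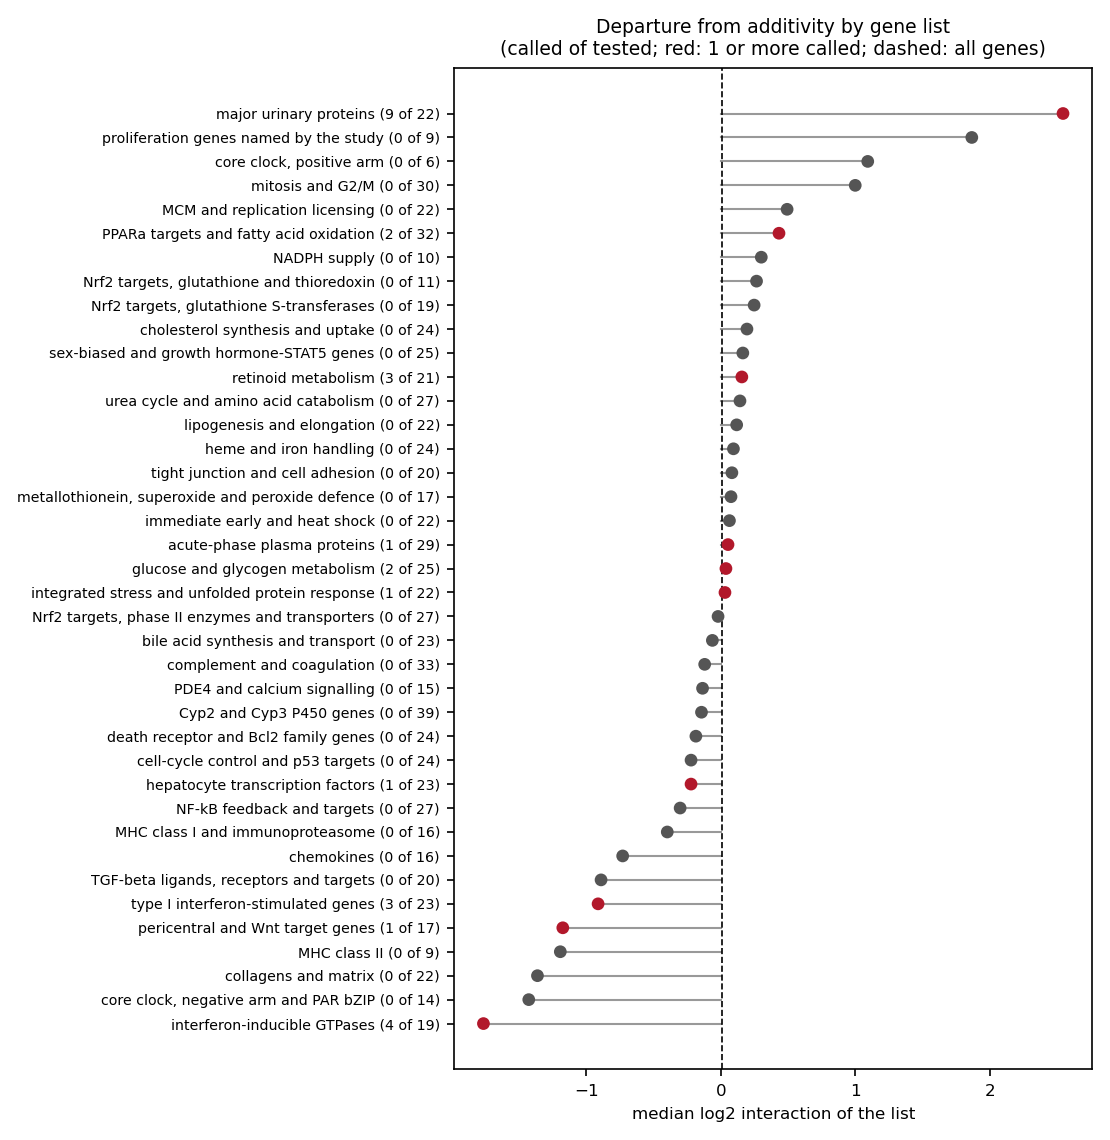
The x axis gives the median log2 interaction of each of 39 gene lists (y axis), with the number of called among tested genes in parentheses. Red points are lists with 1 or more called genes, and the dashed line is the median of all genes tested, 0.01. Major urinary proteins lie at the positive end and interferon-inducible GTPases at the negative end.

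Lists of known targets of the deleted factors, chosen by hand and not by measured binding, held no gene that edgeR called. None of 27 NF-κB feedback and target genes was called (median -0.30), and none of the 11, 19, and 27 Nrf2 targets tested in 3 lists, whereas DESeq2 called 2 glutathione S-transferases higher and no other gene of these lists. At an unadjusted p under 0.05, 3 of the NF-κB genes were lower and none higher, and of the Nrf2 targets 7 were higher and 5 lower. The medians of the Nrf2 target lists were 0.27 for glutathione and thioredoxin genes, 0.25 for glutathione S-transferases, and -0.02 for phase II enzymes and transporters. With equal totals these became -0.01, -0.02, and -0.28, where the median of all genes tested was -0.26. Gstm1, a glutathione S-transferase, had 110478, 116086, and 95274 in control, 16029.8 and 11566 in Nrf2 KO, 68984 and 62012 in p65 KO, and 9477, 9883, and 13929 in DKO normalized counts. Nrf2 loss lowered it with and without p65, and its interaction was 0.40 (standard error 0.28, adjusted p = 0.553). A p over the threshold does not show additivity. Gclc, the catalytic subunit of glutathione synthesis, had 27771, 22722, and 18703 in control, 10523 and 9409 in Nrf2 KO, 10823 and 7563 in p65 KO, and 5111, 5326, and 4599.9 in DKO normalized counts. Both single knockouts lay below control and DKO below both, with an interaction of 0.34 (standard error 0.26, adjusted p = 0.604). Nqo1, a quinone reductase, had an interaction of -0.03 (standard error 0.38, adjusted p = 0.989). Gstp2 was the target with the lowest p among glutathione S-transferases, at 2.66 (standard error 0.70, adjusted p = 0.14), Srxn1, which reduces overoxidized peroxiredoxins, was that of the glutathione and thioredoxin list at 0.74 (standard error 0.24, adjusted p = 0.224), and Hmox1, the inducible heme oxygenase, that of the phase II list at -0.98 (standard error 0.28, adjusted p = 0.169).

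The study names genes from this experiment that it chose on these samples. Of the 56 that were tested, 4 were called, namely Cyp4a31, Cyp4a32, Retsat, and Map3k13, and 31 had an unadjusted p under 0.05. Fgf21, a hepatokine of fasting, came closest among the others. It had 394, 248, and 273 in control, 117 and 88.1 in Nrf2 KO, 366 and 226 in p65 KO, and 22.1, 15.7, and 25.2 in DKO normalized counts. It lay below control in Nrf2 KO, overlapped control in p65 KO, and was lowest in DKO, with an interaction of -2.23 (standard error 0.42, adjusted p = 0.052). St6galnac4, a sialyltransferase, was highest in Nrf2 KO and lower in DKO, with an interaction of -3.82 (standard error 0.78, adjusted p = 0.0684), and the sulfotransferase Sult1c2 had -1.56 (standard error 0.42, adjusted p = 0.145). Clpx, a mitochondrial chaperone that also activates heme synthesis, had 8909.5, 9831, and 7825 in control, 7332 and 4522 in Nrf2 KO, 1639.7 and 1644 in p65 KO, and 3179, 2909.5, and 2168 in DKO normalized counts. It was lowest in p65 KO, and the interaction was 1.33 (standard error 0.30, adjusted p = 0.0978). The tight junction gene Cldn1 had an interaction of 1.07 (standard error 0.27, adjusted p = 0.124) and the junction adaptor gene Tjp1 -0.09 (adjusted p = 0.91). The elongase Elovl3 had 2.39 (standard error 0.65, adjusted p = 0.158) and Elovl5 0.72 (adjusted p = 0.498). The carboxylesterases Ces1b and Ces1g, which lay below control and p65 KO in every Nrf2 KO and DKO library, had interactions of -0.68 (standard error 0.20, adjusted p = 0.194) and -0.29 (standard error 0.40, adjusted p = 0.792).

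The following lists had no member called by edgeR, and the gene with the lowest p in each is given. For tight junction and adhesion genes it was Tjp3 (1.37, adjusted p = 0.0953), for Cyp2 and Cyp3 genes Cyp3a59 (1.18, adjusted p = 0.084), and for lipogenesis Dgat2, the last enzyme of triglyceride synthesis (-1.04, adjusted p = 0.121). For cholesterol genes it was Stard4, a sterol carrier (-0.79, adjusted p = 0.114), for bile acids the uptake transporter Slco1b2 (-0.72, adjusted p = 0.257), and for sex-biased genes Hsd3b5 (-1.13, adjusted p = 0.117). The apoptosis inhibitor Bcl2l1 led the NF-κB and Bcl2 family lists at -0.99 (adjusted p = 0.131), and the G1 cyclin Ccne1 led the cell-cycle control list at -2.48 (adjusted p = 0.117). None of these passed the threshold, and the lists held 11 positive and 9 negative interactions for junction genes, 17 and 22 for Cyp2 and Cyp3 genes, 12 and 10 for lipogenesis, 18 and 6 for cholesterol, 10 and 13 for bile acids, and 15 and 10 for sex-biased genes. The lowest p of complement and coagulation was that of C1ra (-0.50), of NADPH supply Pgls (0.57), of peroxide defence Gpx4 (0.59), of the urea cycle list Oat (-1.39), and of the immediate early list Ier3 (-3.72), with adjusted p between 0.164 and 0.242. For replication licensing it was Rfc4 (0.87, adjusted p = 0.361). DESeq2 called 3 junction, 3 P450, 2 sex-biased, 1 lipogenic, 1 cell-cycle, and 1 immediate early gene of these lists. With equal totals the medians of 14 lists with small values turned from positive to negative, those of lipogenesis (-0.15), cholesterol (-0.08), sex-biased genes (-0.10), and junction genes (-0.19) among them. The median of all genes tested was itself -0.26 in that setting, below the medians of these named lists.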

How the data were processed

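Hepatocyte RNA of 10 mice was sequenced by the authors as stranded poly-A (TruSeq) single-end libraries. The deposited values are estimated counts per gene, which the authors obtained with Salmon (1.10.3 per the labels) on GRCm39 and GENCODE annotation by their methods. The file is named as normalized, but its values are unnormalized estimated counts with different totals per library. DESeq2 (1.42.1) is also listed in the submitters' processing notes. The totals of 33707165 to 49897382 counts limit precision for genes with few counts, and intervals were not computed from them.

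Groups were taken from the genotype labels. The values, whole numbers as deposited, were analyzed with edgeR 4.0.16 (R 4.3.3) using TMM normalization and the quasi-likelihood test, with 1 coefficient per genotype over all 10 libraries and genes with at least 10 counts in sum. A gene was called at a Benjamini-Hochberg adjusted p of at most 0.05 over all 13641 genes and a log2 size of at least 1. All adjusted p-values in the report come from this fit unless DESeq2 is named. Of the 21939 gene IDs, 21926 were matched to symbols and GRCm39 positions in GENCODE M39, and 6302 genes were at 0 in every library. The script was tested on simulated data with known changes. These were placed in DKO alone, without effects of the single knockouts, so the simulation checks the calculation and not the calls reported here.

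Named genes were the 12 called genes with the largest positive and the 12 with the largest negative interaction at a mean of 50 normalized counts or more, the called members of 49 gene lists (10 of them marker lists), the targeted and study-named genes, and the member with the lowest p of a list without a call. The members and lists were chosen with earlier results of these data known. Lists were described by counts and medians. Values of some single genes are not reported here. Promoter windows came from RefSeq (GRCm38.p6). Tables were handled with Python 3.11.15 and pandas 2.3.3. Alternatives were DESeq2 1.42.0, limma 3.58.1 (voom, and trend with pseudocounts of 1 and 0.5), other scalings, other filters, a replicate block, and each library left out.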

Additional observations from a re-analysis of the deposited data

Results flagged for a closer look

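The interaction tests whether the difference of Nrf2 KO from control equals that of DKO from p65 KO. Breeding line and deletion cannot be told apart in it. Each gene named by rank or list that passed this test is given here with its log2 interaction. A positive value means a higher level in DKO than additive. Higher than additive were the Mup genes Mup9 (5.06), Mup2 (4.70), Mup8 (4.46), Mup1 (3.95), Mup14 (3.73), Mup11 (3.72), Mup12 (3.40), Mup20 (2.55), and Mup7 (2.37). The other genes of this direction were Dhrs9 (4.24), Cyp4a31 (3.94), Plekhb2 (3.30), Capn8 (2.92), Retsat (1.77), Cyp4a32 (1.52), and Eno1 (1.52). Zfp982 was higher by at least 5.32, a lower bound because Nrf2 KO had at most 3 counts.

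Lower than additive were the interferon genes Gm4841 (-7.58), Ifi44 (-3.01), Gbp9 (-2.77), Gbp2 (-2.56), Usp18 (-2.08), Ifit3 (-1.77), and Irgm2 (-1.59). The other genes of this direction were Eno1b (-7.25), Nupr1 (-4.66), Atp6v0d2 (-3.92), Tmem51 (-3.59), Rdh9 (-2.32), Synj2 (-1.96), Mpeg1 (-1.92), Serpina3m (-1.92), Glul (-1.54), and Foxa3 (-1.25). Eno1 and Eno1b had departures of opposite sign, and their sum had an interaction of 0.28 with a standard error of 0.22. Serpina3m has close copies, and the sum over 8 Serpina3 genes went the opposite way, at 0.77 with a standard error of 0.26. Mpeg1 and the interferon GTPase genes were highest in the p65 KO libraries. The summed Kupffer cell markers were also highest there (9251 to 10475 normalized counts, against 3544 to 5692 in the other genotypes). As single genes, these markers had a median log2 change against control of 1.67 for DKO and 2.80 for p65 KO. Mpeg1 was above control after loss of Nrf2 alone, at 1596 and 1246 normalized counts against 558 to 663. The summed markers were then below control, at 3544 to 3704 against 4690.2 to 5692. The part of Kupffer cells was not tested.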

How the results depend on the processing

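All 62 called genes kept their direction in all 21 other fits (10 of them leaving out 1 library), and on the linear scale. These fits reuse the libraries on which the genes were chosen, so a kept direction is not independent evidence. Of the results for called genes, 886 stayed past the threshold and 416 missed it. DESeq2 called 249 genes, 136 higher and 113 lower, including all 62. Equal library totals gave 118 genes, 91 of them lower, and 504 for DKO against p65 KO. No filter on low counts gave 137, 81 higher and 56 lower. Equal totals without Mup genes, added after the data had been seen, gave 63. The other settings gave between 53 and 68 genes. Leaving out 1 library gave 8 to 119 called genes, 3 to 67 higher and 5 to 52 lower, 18 to 84 for Nrf2 KO against control, and 70 to 294 for DKO against p65 KO. These fits had fewer libraries, and other causes were not tested. The replicate block gave 53 genes, 30 higher and 23 lower, 38 of them shared, and 56 and 181 for the single effects. The replicate numbers share no stated litter or day, and the 13 same-numbered pairs correlated at -0.23 to 0.11, 1 of them over 0.1, so the samples were treated as unpaired. Among uncalled genes, 22 results passed the threshold under an alternative. Those that reversed were Nfe2l2 without DKO replicate 2 (0.0138, with a range of -0.29 to 0.0138 when 1 library was left out), Rela with equal totals (-0.19), with equal totals without Mup genes (-0.0084), and without DKO replicate 1 (-0.0527, range -0.0527 to 0.21), and the clock gene Ciart without Nrf2 KO replicate 2 (0.26, range -3.41 to 0.26). Of the list medians, 874 moved by less than the spread between mice and 154 by more. The neutrophil markers gave no value under the filter on mean count. With 2 mice in each single knockout, a p over the threshold does not show additivity, least of all for genes with few counts.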
